A study of Ovis aries with 8 samples.

Results

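The urocortin 3 and corticotropin-releasing hormone (CRH) system was described here through 6 genes, 3 for peptide ligands (UCN3, UCN and CRH), 2 for receptors (CRHR1 and CRHR2) and 1 for a binding protein (CRHBP). They were chosen by symbol, and all 6 were found once each among the 25000 rows of the table. UCN2, the remaining ligand of the family, was followed beside them as a related gene. RNA came from islets picked by hand out of the pancreas of near-term sheep fetuses, all singletons carried by Columbia-Rambouillet crossbred ewes. The 4 norepinephrine fetuses received the hormone into a vein for 7 days at a rate that was raised from 1 to 2 and then to 4 µg/min, and were 137 to 139 days of gestation. The 4 control fetuses received the vehicle, saline with ascorbic acid, and were 139 to 140 days of gestation. Controls 1, 3 and 4 and norepinephrine animals 1, 2 and 4 were male, and control 2 and norepinephrine animal 3 were female.

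CRH-family peptides signal through class B receptors that couple to the stimulatory G protein and raise cyclic AMP. Urocortin 3 is stored in beta cells, in some species also in alpha cells, and is released together with insulin. It acts on CRHR2 and hardly on CRHR1, and in the islet it is known for driving somatostatin release from delta cells, which then restrains insulin and glucagon. In mice it is known as a late marker of beta-cell maturation. CRH and urocortin (UCN) can act on CRHR1, through which they enhance glucose-stimulated insulin release, and CRHBP captures both peptides but not urocortin 3.

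Values are FPKM, fragments per kilobase of transcript scaled to each library's mapped fragments, so levels of different genes can be set side by side per length. The sum over all rows ran from 768021 to 1112624 FPKM per animal, and the table holds no counts, so the number of fragments behind a value is unknown. Animals whose number starts with 09 (control 2 and norepinephrine animals 1, 3 and 4) had the higher sums, and those starting with 10 (controls 1, 3 and 4 and norepinephrine animal 2) the lower ones. The labels do not say what these digits mean, and since 3 of 4 animals of each treatment group share a prefix, prefix and treatment are partly confounded. In bulk islets, fewer cells of a type and less RNA per cell cannot be told apart. Pan-endocrine transcripts were abundant in all libraries, with CHGA (chromogranin A) at 3891 ± 1555 FPKM in controls and 4853 ± 829.7 with norepinephrine (SD, n = 4 each). The insulin gene is not listed under the symbol INS and was not analysed here.

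UCN3 was by far the most abundant gene of the family in every animal. It ranked 157 of 25000 rows by its mean over the 8 animals, between a merged row holding DDX5 and EIF4G2, a translation initiation factor, and its rank ran from 106 to 224 in single animals. The table places it on chromosome 13, 42344840 to 42345220 (Oar_v3.1). That model spans only 381 bp, a multiple of 3, as do the 390 bp of UCN and the 336 bp of UCN2. How the quantification treated such short models is unknown here, and the levels of these genes against longer ones carry that uncertainty.

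In controls 1 to 4, UCN3 stood at 555.7, 886.6, 455.4 and 613.0 FPKM. With norepinephrine, animals 1 to 4 stood at 1195, 946.6, 601.6 and 992.2 FPKM. Thus 3 of the 4 norepinephrine animals lay above all controls, while norepinephrine animal 3 lay below controls 2 and 4, and the groups overlapped. The means were 933.9 ± 246.5 FPKM with norepinephrine and 627.7 ± 184.5 in controls (SD, n = 4 each), a ratio of 1.49. The log2 difference of FPKM + 1, norepinephrine minus control, was 0.57 (SE 0.26), which limma did not call (adjusted p = 0.675 over 13252 tested rows, unadjusted p = 0.0573). An exact two-sided permutation test over the 8 animals gave p = 0.0857, where the smallest p for 4 against 4 is 0.0286. As background, 0% of the tested rows passed limma at an adjusted p under 0.05 (0 rows), 7.36% had an unadjusted p under 0.05, and in 4.23% the groups did not overlap.

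**Figure D1:**
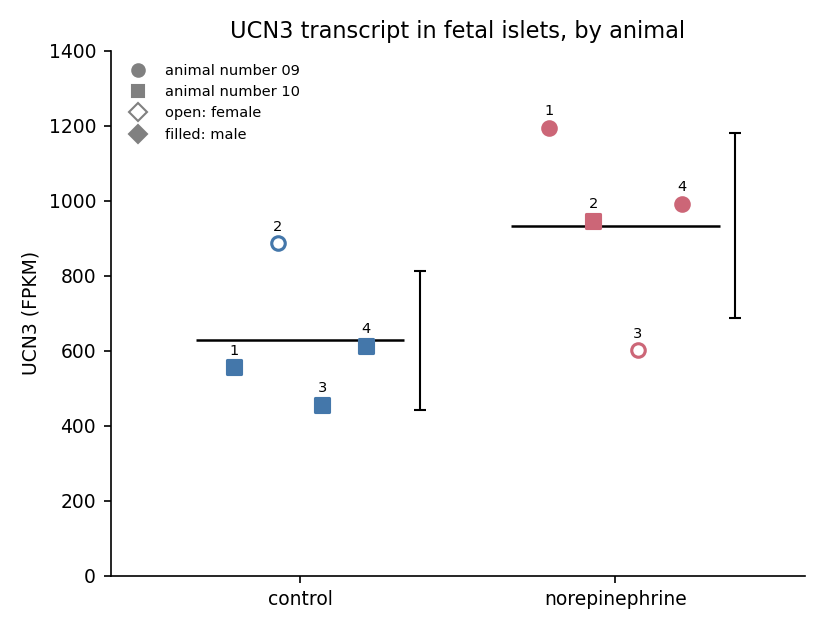
UCN3 in FPKM (vertical axis, from 0) for each animal of the control and norepinephrine groups. Numbers are replicate numbers, circles and squares mark the animal number prefix (09 or 10), open symbols are females, lines are group means and bars are ± 1 SD (n = 4). Norepinephrine animals 1, 2 and 4 lie above every control, and norepinephrine animal 3 (601.6 FPKM) lies among the controls.

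The 2 female fetuses held the positions that made the groups overlap. Control 2 had the highest UCN3 of the controls and norepinephrine animal 3 the lowest of the norepinephrine group. Among the 6 males, norepinephrine animals (946.6 to 1195 FPKM) did not overlap with controls (455.4 to 613.0 FPKM), and the log2 difference was 0.95 (SE 0.18, limma adjusted p = 0.314, exact permutation p = 0.1, the smallest that 3 against 3 allows), where limma called 0.00758% of 13193 rows. In the males, 19.1% of these rows did not overlap between groups, 10.5% with norepinephrine higher, so this separation was common there. A limma model with sex and its interaction with treatment was fitted after this pattern was seen. As each group held 1 female, the residual spread of each row comes from the males alone, and limma moderates it over all tested rows. The UCN3 effect in females minus that in males was -1.51 log2 units (SE 0.35, adjusted p = 0.742), which restates the positions of those 2 animals. Of the tested rows, 0.113% passed for this term after adjustment and 5.56% had an unadjusted p under 0.05, among them UCN3 (0.00398). The 3 male controls all carry numbers starting with 10, as does 1 of the 3 male norepinephrine animals.

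Within the animals numbered 10, UCN3 averaged 541.4 FPKM in 3 controls and was 946.6 FPKM in the single norepinephrine animal, a log2 difference of 0.82. Within those numbered 09 it was 886.6 FPKM in the single control and averaged 929.7 FPKM in 3 norepinephrine animals, a log2 difference of 0.011. With the prefix as a covariate the difference was 0.41 (SE 0.28, limma adjusted p = 0.621).

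Gestational age moved with UCN3. The 3 fetuses of 140 days, all controls, had 455.4 to 613.0 FPKM, and the fetuses of 137 and 138 days, both given norepinephrine, had 992.2 and 1195 FPKM. The 3 fetuses of 139 days had 886.6 FPKM (control 2), 946.6 FPKM (norepinephrine animal 2) and 601.6 FPKM (norepinephrine animal 3). With age as a covariate the norepinephrine difference was 0.059 (SE 0.33, limma adjusted p = 0.967). Because the groups share only 1 day of age, age and treatment cannot be told apart in these animals.

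UCN3 was also set against the endocrine content of each preparation. The mean log2(FPKM + 1) of 12 pan-endocrine genes (granins, prohormone enzymes, vesicle proteins and the transcription factor INSM1) was 8.49 ± 0.18 in controls and 8.69 ± 0.096 with norepinephrine (exact permutation p = 0.114). UCN3 exceeded that mean by 0.67, 1.04, 0.45 and 0.91 log2 units in controls 1 to 4. The excess was 1.55, 1.06, 0.61 and 1.34 log2 units in norepinephrine animals 1 to 4. Norepinephrine animals 1, 2 and 4 were again above all controls, animal 2 only just. The difference of 0.37 log2 units did not pass (exact permutation p = 0.2, n = 4 each), and was 0.24 without norepinephrine animal 1 and 0.64 without the females. Against the mean of the beta-cell list the difference was 0.48 (exact permutation p = 0.229) and against CHGA alone 0.20 (exact permutation p = 0.286). Against the mean of the delta-cell list it was 0.65 (exact permutation p = 0.143). The genes of that list moved in different directions, with SST higher with norepinephrine (log2 1.73) and the other 5 lower on average. The choice of reference thus moved the UCN3 difference to either side of the 0.57 of UCN3 alone. These differences were not tested against each other.

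**Figure D2:**
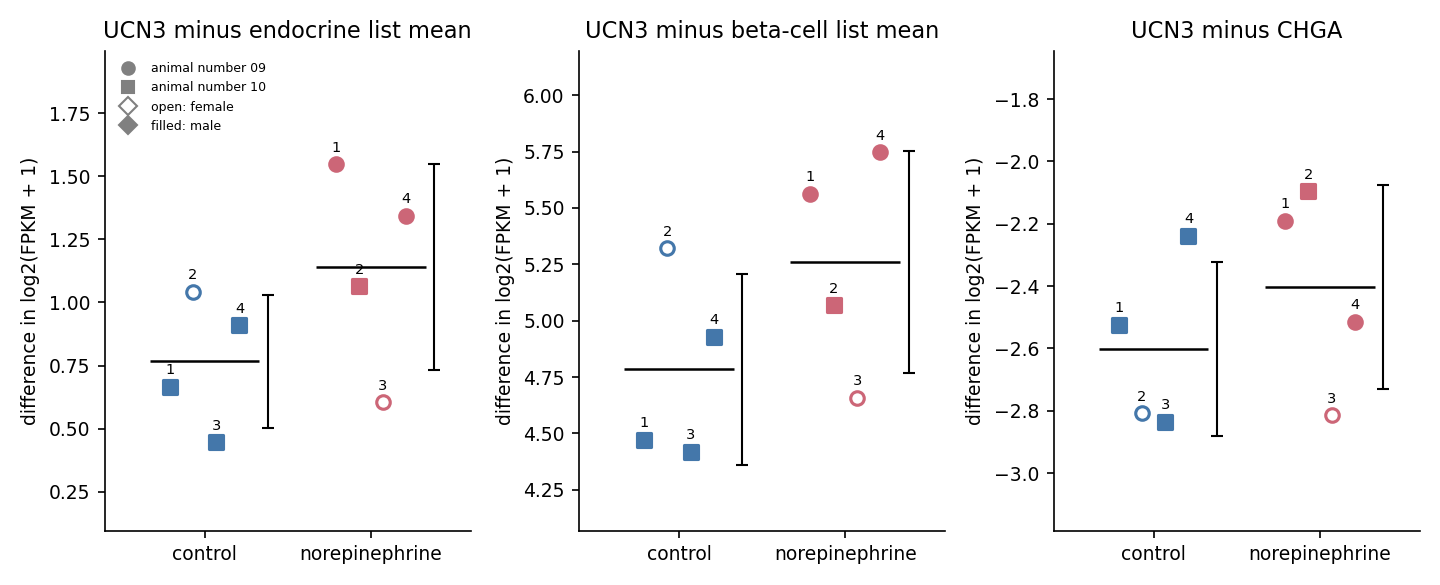
UCN3 relative to endocrine references in each animal: log2(UCN3 FPKM + 1) minus the mean of the pan-endocrine list, minus the mean of the beta-cell list, and minus CHGA (vertical axes, log2 units that do not start at 0). Symbols are as for UCN3 by animal, lines are means and bars ± 1 SD (n = 4). The groups overlap in all 3 panels, with mean differences of 0.37, 0.48 and 0.20.

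The other ligands were close to the lower end of the table. UCN (chromosome 3, 34262459 to 34262848) was at 0.448 and 0.206 FPKM in controls 1 and 4 and at 0.444 and 0.310 in norepinephrine animals 2 and 3, and was listed at 0 in the other 4 animals. CRH (chromosome 9, 43350896 to 43425821) was listed above 0 in 2 animals, at 0.0601 FPKM in control 3 and 0.108 in norepinephrine animal 1. RPL3, a ribosomal gene that every cell uses, is also listed at 0 in this table, so a 0 here is a listed value and not evidence of absence. Both genes fell under the abundance filter (a mean of at least 1 FPKM), and each gave an exact permutation p of 1 (two-sided, n = 4 each).

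UCN2 (chromosome 19, 51259831 to 51260166), another CRHR2 ligand, was at 0.601 and 0.561 FPKM in controls 1 and 2 and listed at 0 in controls 3 and 4. In norepinephrine animals 1 to 4 it was at 0.454, 0.298, 0.417 and 3.73 FPKM. All norepinephrine animals were above 0, but 3 of them lay between the low and high controls, and animal 4 alone stood out. The exact permutation p was 0.286 (n = 4 each). Without norepinephrine animal 4 the log2 difference went from 0.58 to 0.14.

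Both receptors were under 1 FPKM in all 8 animals. CRHR1 (chromosome 11, 45247141 to 45274417) stood at 0.494, 0.359, 0.878 and 0.456 FPKM in controls 1 to 4. In norepinephrine animals 1 to 4 it stood at 0.571, 0.122, 0.510 and 0.773 FPKM. The group means were 0.547 ± 0.228 FPKM in controls and 0.494 ± 0.272 with norepinephrine (SD, n = 4 each). Their log2 difference of -0.058 was smaller than the spread within either group (exact permutation p = 0.8286).

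CRHR2, the receptor that urocortin 3 acts on (chromosome 4, 65611678 to 65646350), stood at 0.617, 0.177, 0 and 0.447 FPKM in controls 1 to 4. In norepinephrine animals 1 to 4 it stood at 0.407, 0.960, 0.728 and 0.869 FPKM. Norepinephrine animals 2, 3 and 4 lay above all controls and animal 1 lay between them, so the groups overlapped. The log2 difference of FPKM + 1 was 0.42, with an exact permutation p of 0.0857 (n = 4 each). It was 0.49 within prefix 09 (1 control), 0.56 within prefix 10 (1 norepinephrine animal) and 0.55 between the females (1 in each group). Among males it was 0.38, with overlapping groups (exact permutation p = 0.3). With 1 animal left out it ran from 0.30 (without control 3, listed at 0) to 0.53 (without control 1). With scaling to equal totals it was 0.37 (exact permutation p = 0.171). All of these values reuse the same animals. The size depends on the added constant: with 0.1 in place of 1 FPKM it was 1.33 and with 0.01 it was 2.23 (exact permutation p = 0.0857 for both). With all rows above 0 entered in limma, CRHR2 had an unadjusted p of 0.0334, as did 7.13% of 18244 rows under 0.05, and an adjusted p of 0.663. At these levels the number of fragments is small and unknown, so the precision of each value cannot be given.

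CRHR1 and CRHR2 were not distinguishable in level. CRHR1 was the higher of the pair in 4 of 8 animals (controls 2, 3 and 4 and norepinephrine animal 1), and the mean within-animal difference was 0.012 ± 0.478 log2 units (SD, n = 8, exact sign permutation p = 0.906, smallest possible 0.00781). Over the 4 controls the mean difference was 0.25 in favour of CRHR1 and over the 4 norepinephrine animals -0.23.

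CRHBP (chromosome 7, 7910104 to 7922061) was the only member besides UCN3 that passed the abundance filter. It stood at 0.345, 1.75, 2.21 and 10.9 FPKM in controls 1 to 4. In norepinephrine animals 1 to 4 it stood at 0.355, 0.513, 1.74 and 1.75 FPKM. Control 4 was 4.9 times the next highest animal, and the other 7 animals shared a range from 0.345 to 2.21 FPKM. The log2 difference was -0.80 (SE 0.59, limma adjusted p = 0.777, exact permutation p = 0.343), without control 4 it was -0.20 (limma adjusted p = 0.970), and without control 1 it was -1.25 (limma adjusted p = 0.922). The summed levels of 9 endothelial, 9 mesenchymal and 8 leukocyte markers in control 4 (304.5, 2421 and 154.7 FPKM) lay within the range of the other 7 animals. VIM alone gave 1632 FPKM of the mesenchymal sum. Single markers did not all do so: control 4 had the highest KDR (34.2 FPKM, next 25.9) and EMCN (56.1 FPKM, next 49.2), both endothelial. Of the other endothelial markers, CDH5 and TEK were second highest in control 4. PLVAP, FLT1, TIE1, VWF and ESAM were neither highest nor second highest there. Control 4 had the second highest PDGFRB and RGS5 (70.8 and 5.44 FPKM), both of pericytes, after norepinephrine animal 4 (117.5 and 11.4 FPKM). LUM, DCN and COL3A1 (175.5, 115.3 and 127.6 FPKM) were likewise second to that animal. COL1A1, COL1A2, THY1 and VIM were not. These single markers were picked after seeing their values. Their part in the CRHBP value was not tested.

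**Figure D3:**
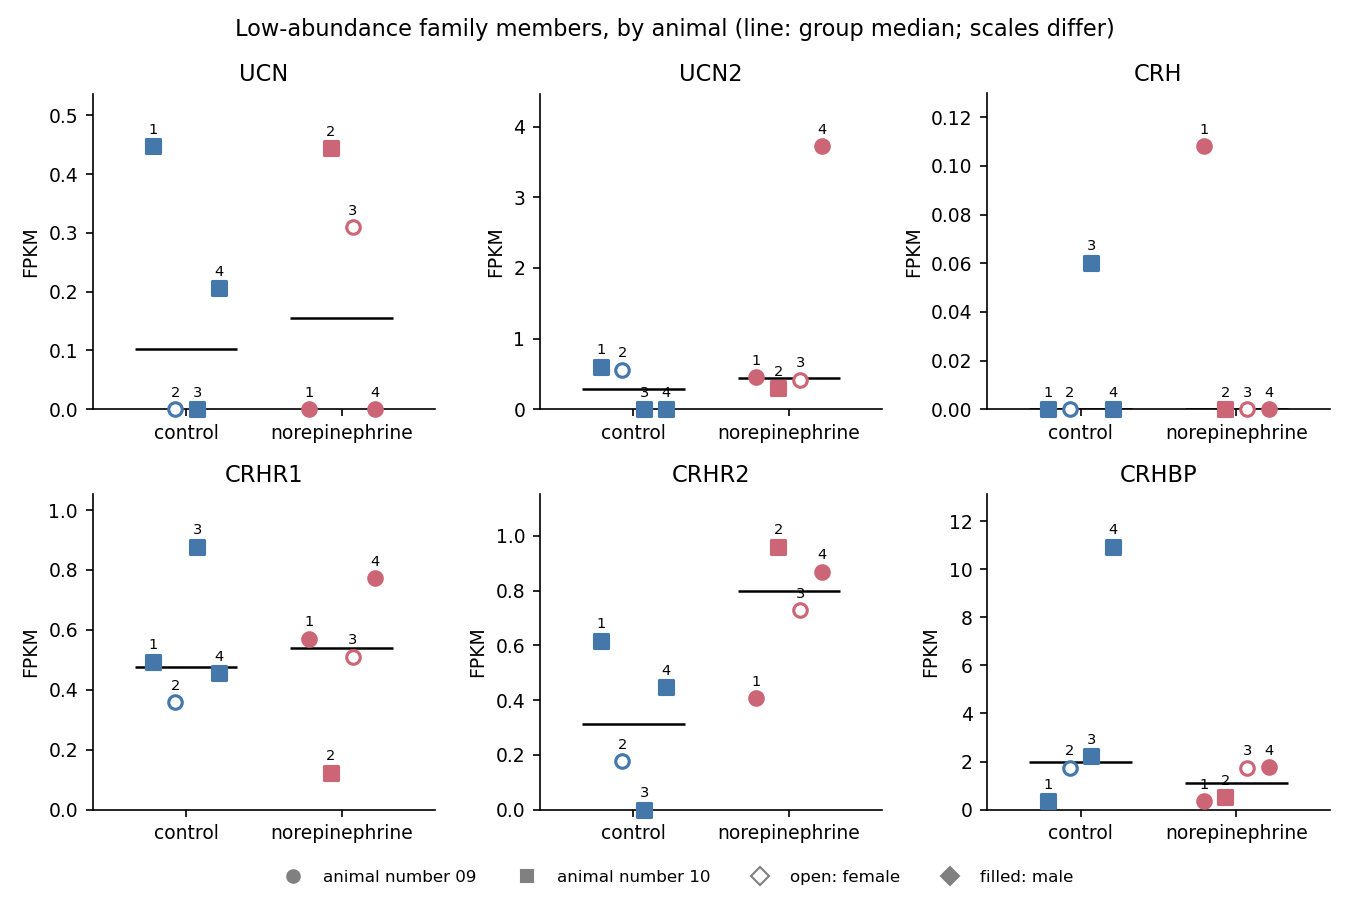
FPKM of UCN, UCN2, CRH, CRHR1, CRHR2 and CRHBP in each animal, with a separate vertical scale from 0 for each gene. Numbers are replicate numbers, circles and squares the number prefix 09 and 10, open symbols females, and lines group medians. CRHR2 is higher in norepinephrine animals 2, 3 and 4 than in any control, single animals stand apart for UCN2 (3.73 FPKM) and CRHBP (10.9 FPKM), and CRH is above 0 in only 2 animals.

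In order of mean level the family ran UCN3, CRHBP, UCN2, CRHR2, CRHR1, UCN and CRH. UCN3 was above every other member in all animals, with a lowest value of 455.4 FPKM against a highest of 10.9 FPKM for CRHBP. From CRHBP to UCN, neighbours in this order overlapped in range. CRH, at most 0.108 FPKM, overlapped with UCN because both hold values listed at 0.

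Other class B peptide hormone receptors gave a scale for CRHR1 and CRHR2. GCGR, the glucagon receptor, stood at 13.4 ± 4.43 FPKM in controls and 12.5 ± 3.06 with norepinephrine. SCTR, the secretin receptor, stood at 5.60 ± 4.68 and 14.0 ± 10.1 FPKM, and CALCRL, a receptor of adrenomedullin and calcitonin gene-related peptide, at 5.64 ± 0.988 and 4.81 ± 0.878 FPKM (SD, n = 4 each). These were the 3 most abundant of the list. The lowest value of each of GCGR, SCTR and CALCRL in any animal was above the highest CRHR1 or CRHR2 value of any animal. At the other end, VIPR1, PTH1R, PTH2R, CALCR and GHRHR had lower means over the 8 animals than both CRH receptors. ADCYAP1R1 (0.557 FPKM) was close to CRHR1 and CRHR2 (0.520 and 0.526 FPKM). Of 12 other class B receptors listed, 6 passed the abundance filter and 0 passed limma in either direction at an adjusted p under 0.05 (0 also at an unadjusted p under 0.05). Their median log2 difference was 0.21, against 0.017 over all tested rows, of which 0% passed limma and 7.36% had an unadjusted limma p under 0.05.

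**Figure D4:**
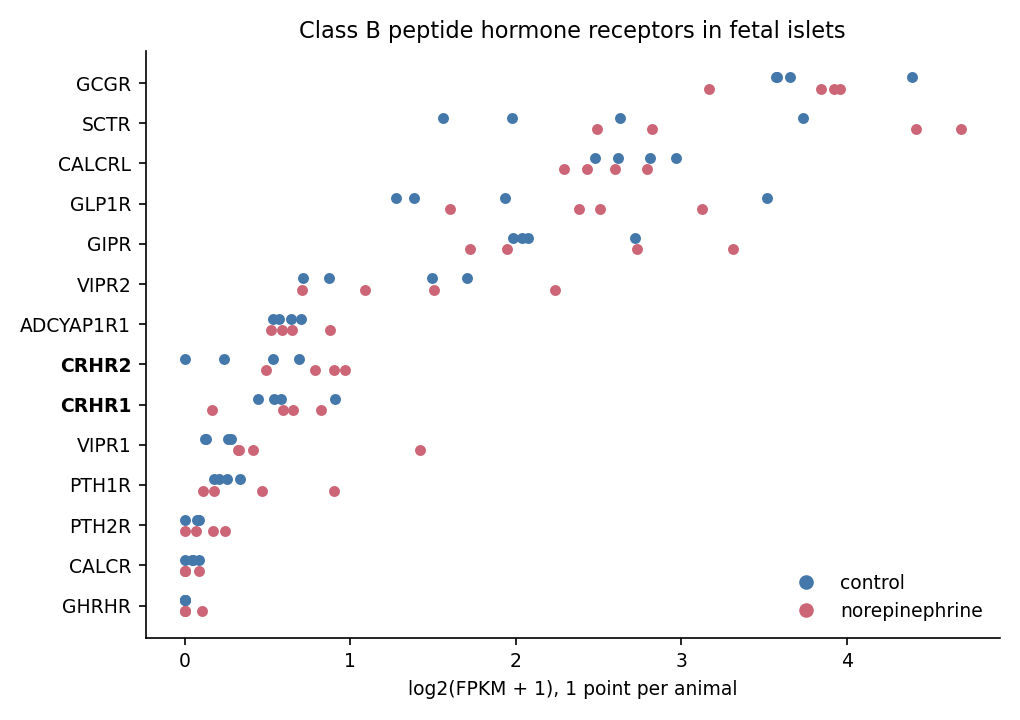
Level of 14 class B receptors as log2(FPKM + 1) (horizontal axis), 1 point per animal, ordered by mean FPKM, with controls in blue and norepinephrine animals in red. CRHR1 and CRHR2, in bold, lie below GCGR, SCTR and CALCRL in every animal.

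Genes that carry or end a CRH receptor signal were mostly present and did not separate the groups. Of 31 genes of this list in the table, UCN2 among them, 27 were tested without UCN2, 12 with a higher and 15 with a lower mean log2 value, and 0 passed limma in either direction (2 at an unadjusted p under 0.05, GNAS and PRKAR2B, the latter named after its values were seen). The median log2 difference was -0.028 against 0.017 over all tested rows. Of all tested rows, 52.6% had a higher mean and 7.36% an unadjusted limma p under 0.05. GNAS, the stimulatory G protein alpha subunit, stood at 1896 ± 535.8 FPKM in controls and 2842 ± 692.3 with norepinephrine, and did not pass (log2 0.59, limma adjusted p = 0.666). PRKAR1A, a regulatory subunit of protein kinase A, stood at 542.5 ± 98.7 and 621.4 ± 69.2 FPKM. ADRBK2, a kinase that desensitises receptors, stood at 100.1 ± 10.4 and 108.7 ± 8.24 FPKM.

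Enzymes that mature peptide precursors, which family ligands also need, were all tested. Of 9 genes, 5 were higher and 4 lower on average, against 52.6% higher over all tested rows, with a median of 0.0097, and 0 passed limma. In limma, 2 had an unadjusted p under 0.05 (CPE and QPCT), against 7.36% of all tested rows. CPE, the carboxypeptidase that trims prohormones, stood at 552.3, 738.1, 525.3 and 498.2 FPKM in controls 1 to 4. In norepinephrine animals 1 to 4 it stood at 793.9, 798.8, 798.4 and 803.6 FPKM. The groups did not overlap, and the norepinephrine animals lay close together. The log2 difference of 0.48 (SE 0.16) did not pass (limma adjusted p = 0.574). FURIN and QPCT, named after their values were seen, also did not overlap, against 4.23% of all tested rows. Both were lower with norepinephrine (73.3 ± 5.65 against 86.2 ± 4.83 FPKM and 8.33 ± 1.14 against 13.4 ± 4.22 FPKM). SCG5, the chaperone of prohormone convertase 2, and PCSK2, that convertase, overlapped between groups.

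Beta-cell transcription factors and function genes, beside which UCN3 is known as a maturation marker, had a median difference of 0.19 over 14 tested genes. Of these, 10 were higher and 4 lower, against 52.6% higher over all tested rows, and 0 passed limma. In limma, 1 had an unadjusted p under 0.05 (FOXA2, named after its values were seen), against 7.36% of all tested rows. PDX1 stood at 256.9 ± 30.9 FPKM in controls and 272.4 ± 47.6 with norepinephrine, PAX6 at 102.4 ± 17.7 and 119.9 ± 31.2 FPKM, and ABCC8 at 98.9 ± 38.3 and 113.9 ± 34.0 FPKM. PDX1 and PAX6 are transcription factors of the islet, and ABCC8 is the sulfonylurea receptor. Their log2 differences, 0.076, 0.21 and 0.22, were smaller than the 0.57 of UCN3. Over the 14 tested genes they ran from -0.40 (SLC2A2) to 0.47 (NKX2-2), with FOXA2 at 0.44, so some lay closer to UCN3. SLC2A2 and NKX2-2 were named after their values were seen. The difference between these differences was not tested.

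Alpha-cell genes, the other possible islet source of UCN3, had a median of 0.43 over 11 tested genes. Of these, 9 were higher and 2 lower, against 52.6% higher over all tested rows, and 0 passed limma. In limma, 1 had an unadjusted p under 0.05 (GC, named after its values were seen), against 7.36% of all tested rows. GCG, the glucagon gene, stood at 1348 ± 752.9 FPKM in controls and 2073 ± 1497 with norepinephrine. Their summed level ran from 1642 to 3840 FPKM in controls and from 2062 to 5942 FPKM with norepinephrine. The order of animals differed from that of UCN3, since norepinephrine animal 1 had the highest UCN3 and the lowest alpha-cell sum of its group. The part of alpha cells in the UCN3 values was not tested.

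Delta cells are where urocortin 3 acts in the islet. SST, the somatostatin gene, stood at 927.8, 191.6, 113.2 and 338.5 FPKM in controls 1 to 4 and at 499.2, 1660, 550.2 and 1858 FPKM in norepinephrine animals 1 to 4. It overlapped between groups because of control 1, and its log2 difference of 1.73 (SE 0.67) was not called by limma (adjusted p = 0.628). The animals with the most SST, norepinephrine animals 2 and 4, were also those with the most CRHR2, while UCN3 was highest in norepinephrine animal 1. UCN3 divided by SST ran from 0.534 to 4.63 over the 8 animals, with both control 1 (0.599) and norepinephrine animals 2 and 4 (0.570 and 0.534) at its low end.

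The other delta-cell genes tested had lower means with norepinephrine. RBP4 stood at 6283 ± 2150 FPKM in controls and 4827 ± 1752 with norepinephrine. CASR, the calcium-sensing receptor, stood at 122.4 ± 10.3 and 81.2 ± 17.3 FPKM, with no overlap between groups and no call (log2 -0.61, SE 0.17, limma adjusted p = 0.523). Of 6 delta-cell genes tested, 1 was higher and 5 lower on average, with a median of -0.38, and 0 passed limma. In limma, 2 had an unadjusted p under 0.05 (SST and CASR), against 7.36% of all tested rows. Over all tested rows, 52.6% had a higher mean, and in 4.23% the groups did not overlap. All 4 somatostatin receptors tested had higher means with norepinephrine, against that 52.6%, with a median of 0.58. Of them, 0 passed (limma, 0 at an unadjusted p under 0.05). SSTR2 stood at 2.11 ± 0.540 and 4.55 ± 2.85 FPKM, SSTR5 at 1.71 ± 1.19 and 3.65 ± 2.35 FPKM, and SSTR3 at 1.74 ± 1.55 and 2.80 ± 1.98 FPKM, control before norepinephrine.

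Genes of the hypothalamic-pituitary-adrenal stress axis, the setting in which CRH is best known, included 6 tested genes with a median of -0.076, 2 higher and 4 lower, and 0 passed (limma, 0 at an unadjusted p under 0.05). Over all tested rows, 52.6% had a higher mean, 0% passed limma and 7.36% had an unadjusted limma p under 0.05. POMC, the precursor of adrenocorticotropic hormone, stood at 237.0, 416.7, 52.5 and 26.5 FPKM in controls 1 to 4 and at 117.0, 111.2, 173.2 and 42.9 FPKM in norepinephrine animals 1 to 4. It varied more among controls than between groups. NR3C1, the glucocorticoid receptor, stood at 27.9 ± 1.91 and 23.9 ± 2.22 FPKM, and FKBP5, a glucocorticoid target, at 34.4 ± 1.95 and 28.7 ± 4.47 FPKM, control before norepinephrine. Neither passed (limma adjusted p = 0.696 and 0.681).

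No marker of exocrine cells passed, though some libraries held more of these transcripts than others. All 8 acinar markers tested were higher with norepinephrine, against 52.6% of all tested rows, with a median of 1.15, and 0 passed limma. In limma, 2 had an unadjusted p under 0.05 (CPB1 and CELA1, the latter named after its values were seen), against 7.36% of all tested rows. Of 11 acinar markers listed, 0 were at 0 in all animals, and their sum ran from 127.1 to 179.7 FPKM in controls and from 138.7 to 1078 FPKM with norepinephrine. The sum of norepinephrine animal 2 lay within the control range, and the highest was that of norepinephrine animal 3, whose UCN3 was the lowest of its group. Single markers did not all follow the sum. CPB1 did not overlap between groups (15.5 to 39.0 FPKM in controls, 58.4 to 139.8 with norepinephrine), against 4.23% of all tested rows. In norepinephrine animal 2, CPB1 (58.4 FPKM) and CELA1 (14.0 FPKM) were above every control. There CPA1, CLPS and CEL (40.2, 9.08 and 7.46 FPKM) were below every control. Adding the acinar mean to the model gave a UCN3 difference of 0.68 (SE 0.33, limma adjusted p = 0.849). Of 6 duct markers tested, 4 were higher and 2 lower on average, with a median of 0.53, and 0 passed (limma, 3 at an unadjusted p under 0.05, against 7.36% of all tested rows). These 3 were KRT7 (124.7 ± 42.8 FPKM in controls and 252.5 ± 107.8 with norepinephrine), TFF2 (5.22 ± 2.35 and 13.2 ± 6.10 FPKM) and MUC1 (4.48 ± 1.84 and 10.7 ± 6.005 FPKM), the last pair named after their values were seen. EPCAM, the most abundant, stood at 535.8 ± 66.9 and 526.5 ± 88.8 FPKM. The sum of 7 duct markers, most of it EPCAM, ran from 604.0 to 818.5 FPKM in controls and from 598.3 to 1077 FPKM with norepinephrine, with norepinephrine animal 2 lowest and animal 3 highest of all animals. Its part in the UCN3 values was not tested.

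The rows whose pattern over the 8 animals was most like UCN3 were sought among 7196 other rows with a gene symbol and a mean of at least 10 FPKM. By Pearson correlation of log2(FPKM + 1) over the 8 animals they were RPN2 (r = 0.95), ENPP2 (0.94), COX11 (0.93), DTNB (0.92), DENR (0.92) and STK11 (0.90). These values describe the ranking only, since the highest of many correlations over 8 animals are high by selection and the animals part by number prefix. RPN2, a subunit of the oligosaccharyltransferase of the endoplasmic reticulum that lies on the same chromosome as UCN3, stood at 298.1, 402.3, 283.5 and 333.3 FPKM in controls 1 to 4. It stood at 454.1, 386.1, 364.5 and 446.2 FPKM in norepinephrine animals 1 to 4. As for UCN3, control 2 was the highest control and norepinephrine animal 3 the lowest of its group. ENPP2, the secreted enzyme autotaxin, stood at 113.9 ± 39.2 FPKM in controls and 168.3 ± 27.7 with norepinephrine, and COX11, a copper chaperone of cytochrome oxidase, at 33.0 ± 5.74 and 45.7 ± 4.95 FPKM. None of the 6 passed (limma adjusted p from 0.550 to 0.873).

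**Figure D5:**
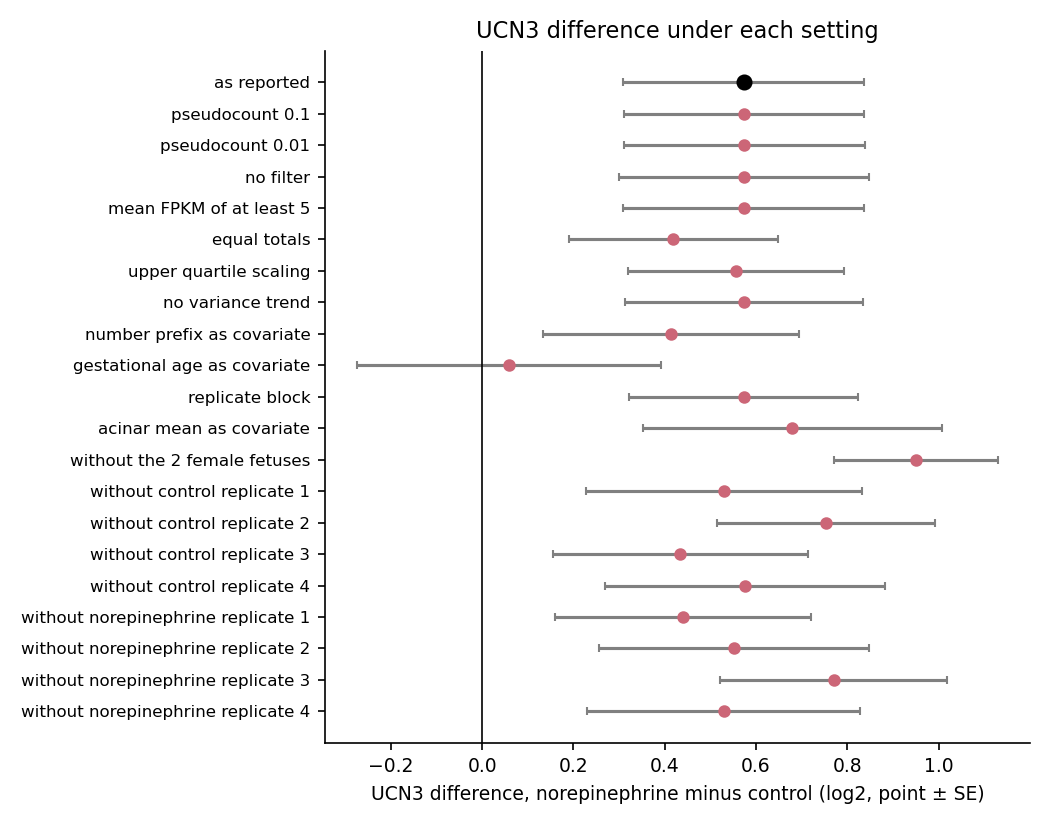
UCN3 difference, norepinephrine minus control, on the log2 scale (horizontal axis, point ± SE from limma) as reported (black) and under 20 other settings (red). All points are above 0, from 0.059 with gestational age as a covariate to 0.95 without the 2 female fetuses.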

How the data were processed

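RNA of islets from 8 sheep fetuses was sequenced from TruSeq RNA libraries (paired reads), per the labels' protocols. The deposited table gives FPKM, 1 value per gene and animal, per the file headers. The submitters' processing notes name TopHat2 2.0.1, Cufflinks 2.1.1, Cuffdiff and Oar_v3.1, the genome build. No source used here gives the annotation, strand setting or filters. Columns were matched to animals by animal number, and 0 columns were left out. The table's start coordinates were raised by 1. All 6 symbols matched the RefSeq gene table of another assembly, used for names only.

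Values were analysed as log2(FPKM + 1), which understates changes of low genes. The 13252 rows with a mean of at least 1 FPKM were tested with limma 3.58.1 in R 4.3.3 (eBayes with trend, two-sided, Benjamini-Hochberg over all tested rows, threshold 0.05), checked on simulated data. Single values were tested by exact permutation in scipy 1.17.1 (7 genes, unadjusted). Of duplicate rows the highest was used. Named genes were the family, the 3 most abundant tested members of each list, and the 6 rows most like UCN3. Members and lists were chosen with earlier results of these data known. Replicate numbers belong to different animals and pair nothing. The labels give the fetuses separate ages, weights and numbers, so replicates are animals.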

Additional observations from a re-analysis of the deposited data

Results flagged for a closer look

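UCN3 moved in opposite directions in the sexes: all 3 male norepinephrine animals were above all 3 male controls (log2 difference 0.95), and the female norepinephrine animal was below the female control (-0.56). The effect in females minus that in males was -1.51 log2 units (SE 0.35). With sex and its interaction in limma this had an unadjusted p of 0.00398, as 5.56% of the tested rows did under 0.05, and an adjusted p of 0.742, so it did not pass. There was 1 female in each group, both numbered 09, so the residual spread behind the SE comes from the males alone, moderated by limma over all tested rows. The model was fitted after the pattern was seen, and sex cannot be told apart from the single animals.

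UCN2 in norepinephrine animal 4, at 3.73 FPKM, stood far from the rest of its group. It was 1 of 3 such cases in 16 groups checked. The cut-off flags about 1 in 20 groups of normally distributed values, and values at or near 0 need not be so distributed, so the chance rate here is unknown. The other cases carry no information, since a group with 3 values at 0 and 1 above is always picked out: CRH in control 3 (0.0601 FPKM) and in norepinephrine animal 1 (0.108 FPKM) was the only value above 0 in its group.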

How the results depend on the processing

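No family member crossed the threshold under any of the 133 alternatives run for the 6 members and the comparisons built on them. In 121 of these the direction also held. Part of them could not cross it. Exact group comparisons with 1 animal left out cannot go below 0.0571, and those among males not below 0.1. The sign tests within a single group of 4 could not cross it either. For these, the lack of a crossing carries no information. UCN3 stayed higher with norepinephrine in all 20 of its alternatives (limma adjusted p from 0.242 to 0.999). Its difference ran from 0.43 (without control 3) to 0.77 (without norepinephrine animal 3) with 1 animal left out. It was 0.059 with gestational age as a covariate. Scaling to equal totals moved the median of all tested rows from 0.017 to -0.12 and UCN3 to 0.42, and UCN3 had 0.57 (adjusted p = 0.970) with the replicate block. Same-numbered animals did not deviate together (r from -0.38 to 0.093). The block gave 646 rows at an unadjusted p under 0.05 against 975.

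The direction turned for UCN without the 2 females (-0.091), and from -0.071 to 0.14 with 1 animal left out, for CRH from -0.021 to 0.037, and for CRHR1 from -0.15 to 0.073. With gestational age as a covariate it turned for UCN2 (-0.53), while UCN went from 0.029 to 0.41 and CRHR1 from -0.058 to -0.25 (limma adjusted p = 0.654 and 0.806). The covariate and block models on all rows above 0, the acinar covariate and the delta-cell reference (0.65 for relative UCN3) were chosen after seeing the data. CRHR1 minus CRHR2 ran from -0.12 to 0.13 with 1 animal left out and was -0.23 in norepinephrine animals alone. Over all genes, 0 rows passed, against 1 with equal totals, 1 with the number prefix and 1 without the females, and 0 to 2 with 1 animal left out. Rows at an unadjusted p under 0.05 ran from 588 without control 3 to 2185 without control 2, with 1552 for the prefix, 1619 without the females and 1509 without norepinephrine animal 2. The cause was not tested. With 3 animals in a group the exact test could not go below 0.0571, or 0.1 for the males.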
